A study of Mus musculus with 672 samples.

Results

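The 43 genes described here encode the DNA replication machinery. They were taken by name from a list of replication factors and are 43 of the 26127 genes in the table, and all 43 were found. They fall into 10 roles: the MCM helicase, the origin recognition complex, helicase loading factors, helicase activation factors, the sliding clamp with its loader, polymerase alpha-primase, polymerases delta and epsilon, Okazaki fragment joining, nucleotide supply and the single-strand binding protein RPA. The rule itself used no expression value.

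Replication begins when the origin recognition complex, Cdc6 and Cdt1 load the MCM helicase onto DNA in G1. In S phase Cdc45, the GINS complex and Mcm10 turn the loaded helicase into a moving fork, where primase and the polymerases copy the exposed strands behind RPA and the PCNA clamp. Many of these genes are transcribed towards S phase under the E2F family of transcription factors, and cells that leave the cycle lower them. Pluripotent mouse cells divide fast and spend much of their cycle in S phase, while cultured fibroblasts divide more slowly.

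The study turned fibroblasts of female mouse embryos (MEFs), bred from Mus musculus (Mus) and Mus castaneus (Cast) parents, into induced pluripotent stem cells (iPSCs), and single cells were profiled by Smart-seq2, which copies whole polyadenylated transcripts from the cell in each well. All groups carried lentiviral vectors for doxycycline-inducible Oct4, Sox2, Klf4 and Myc together with the M2rtTA activator, and their X chromosome of Mus origin bore GFP. Sorting the MEFs on GFP gave cells whose inactive X was the Mus copy (Xi-Mus) or the Cast copy (Xi-Cast). The groups were Xi-Mus MEFs at day 0 (86 cells, MEF medium, no doxycycline), Xi-Mus intermediates at day 8 (82 cells), day 9 (83 cells), day 10 (80 cells) and day 12 (80 cells), Xi-Mus iPSCs (90 cells), and Xi-Cast intermediates at day 12 (66 cells). The intermediates grew in embryonic stem cell medium with doxycycline and ascorbic acid and were sorted with an antibody to SSEA1, a carbohydrate surface antigen of pluripotent mouse cells (the labels write FUT4+). The iPSCs came from picked colonies after doxycycline and ascorbic acid had been withdrawn.

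Nothing in the labels separates cultures or animals within a group, so each group was treated as 1 sample, no difference between groups has a replicate check and no p-value is given. Days 0 to 10 were sequenced in 1 pool and both day 12 groups with the iPSCs in another, so stage and pool cannot be told apart between these sets. Depth was 15053 to 2098345 gene-assigned reads per cell (median 583643). The day 0 group had reads of at least 5 of 10 fibroblast markers in 84 of 86 cells, and the iPSC group had reads of at least 5 of 10 pluripotency markers in 90 of 90 cells and of 5 fibroblast markers in 0. Among the intermediates, 29 of 82 cells at day 8 and 47 of 80 Xi-Mus cells at day 12 had reads of at least 5 pluripotency markers. A cell with reads of at least 5 of 9 blood and macrophage markers was found once on each of the day 10, day 12 Xi-Mus and iPSC groups. Below, a level is the mean over the cells of a group in reads per 100000 gene-assigned reads of a cell, and a log2 ratio compares 2 such means after adding 1 to each. A gene counts as higher or lower by 2-fold when this ratio passes 1 or -1. Of the members, 42 had a mean of at least 1 over the 7 groups, as did 9525 of all genes. Fen1, which trims Okazaki fragments, did not.

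The promoters of several members carry the letters of E2F motifs, and 5 are printed to show how they are placed. The sequences are from RefSeq (build GRCm38.p6) and run from 250 bases before to 50 bases after the start site, 300 bases in all, 5′ to 3′ on the strand of the gene. Capitals mark each match to TTTGGCGC, TTTCCCGC, TTTGCCGC or TTTCGCGC on either strand. The MCM helicase genes Mcm5 (chr8:75109259-75109558, plus strand) and Mcm6 (chr1:128359656-128359955, minus strand) are shown because matches on opposite strands overlap in each. The helicase loader gene Cdc6 (chr11:98907901-98908200, plus strand) is shown as a gene with reads in few MEFs, and Pola1 (chrX:93632106-93632405, minus strand) as the X-linked member. Rpa2 (chr4:132768110-132768409, plus strand) had the largest iPSC to day 0 ratio with a pseudocount of 1 (Mcm10 was larger with 0.1) and holds no match.
Mcm5: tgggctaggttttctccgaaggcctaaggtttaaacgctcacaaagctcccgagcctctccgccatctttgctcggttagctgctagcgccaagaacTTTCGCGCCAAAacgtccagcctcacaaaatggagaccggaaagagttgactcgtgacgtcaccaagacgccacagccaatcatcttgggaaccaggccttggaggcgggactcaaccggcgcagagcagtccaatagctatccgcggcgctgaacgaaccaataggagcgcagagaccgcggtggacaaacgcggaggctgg
Mcm6: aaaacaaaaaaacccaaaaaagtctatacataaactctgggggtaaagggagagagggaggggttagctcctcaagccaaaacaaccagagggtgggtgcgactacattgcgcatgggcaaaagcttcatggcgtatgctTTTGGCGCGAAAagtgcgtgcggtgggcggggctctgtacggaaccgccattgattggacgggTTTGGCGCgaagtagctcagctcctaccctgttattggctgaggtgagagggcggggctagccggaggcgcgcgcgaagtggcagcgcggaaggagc
Cdc6: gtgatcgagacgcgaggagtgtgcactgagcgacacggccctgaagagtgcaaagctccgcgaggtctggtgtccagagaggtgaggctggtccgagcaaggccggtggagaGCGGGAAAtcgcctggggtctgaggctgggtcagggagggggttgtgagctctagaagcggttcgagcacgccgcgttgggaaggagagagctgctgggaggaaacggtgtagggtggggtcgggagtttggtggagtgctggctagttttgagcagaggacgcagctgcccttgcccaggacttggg
Pola1: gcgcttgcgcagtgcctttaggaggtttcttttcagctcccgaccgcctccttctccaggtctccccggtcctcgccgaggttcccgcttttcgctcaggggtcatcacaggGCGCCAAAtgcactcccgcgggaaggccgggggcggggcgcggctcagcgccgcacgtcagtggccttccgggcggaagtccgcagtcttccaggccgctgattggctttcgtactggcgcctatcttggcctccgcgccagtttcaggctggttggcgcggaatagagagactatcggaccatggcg
Rpa2: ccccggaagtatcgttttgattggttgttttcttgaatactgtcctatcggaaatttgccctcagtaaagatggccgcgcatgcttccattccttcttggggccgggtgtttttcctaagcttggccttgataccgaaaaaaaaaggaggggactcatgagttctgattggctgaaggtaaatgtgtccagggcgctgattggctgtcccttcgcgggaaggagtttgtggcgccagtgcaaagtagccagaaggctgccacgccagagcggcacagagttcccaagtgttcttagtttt

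A promoter was given for 36 of the 43 members, and 15 of the 36 (41.7%) held at least 1 match in a promoter. Among all 32851 promoters of this length 744 (2.26%) did, and among 27025 genes 704 (2.605%). The member promoters had a median GC content of 60.7%, against 52.7% over all promoters. The 15 genes were Mcm3, Mcm5, Mcm6, Mcm7, Orc1, Orc3, Cdc6, Cdt1, Gins3, Rfc3, Pola1, Pold1, Pold3, Pole2 and Lig1. They covered 8 of the 10 roles, and none supplied nucleotides or belonged to RPA. TTTCCCGC was the commonest of the 4 motifs among member promoters (8 promoters), and also among all promoters (351). TTTGGCGC was found in 6 member promoters and 169 of all, and TTTCGCGC in 6 and 106. TTTGCCGC was found in 0 member promoters and in 145 of all 32851, too rare for the 0 to be read. In iPSCs over day 0 the 15 members with a match had a median log2 ratio of 2.48 (0.87 to 3.22), against 2.01 (0.25 to 3.57) for 20 expressed members without one, so the ranges overlapped widely. At day 8 over day 0 the medians were 1.39 with a match and 1.34 without. A match is a description of the letters and not of binding. Only exact matches to the 4 motifs were searched, so a gene without a match is not shown to lack E2F sites.

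The members were higher in iPSCs than in MEFs almost throughout. Of 42 members, 37 were at least 2-fold higher in iPSCs and 0 at least 2-fold lower, while the shares among all genes were 21.6% (higher) and 17.8% (lower). The median log2 ratio of the members was 2.08, against 0.14 over all genes, and all 42 lay above 0, as did 55.7% of all genes. Scaling the groups by median ratios shifted the median of all genes to -0.06 and put 1 member, Orc4, below 0 (-0.06). The 5 members that did not reach 2-fold were Orc4, Rrm1, Orc3, Rfc3 and Pole2. Across the 6 Xi-Mus groups, 40 of 43 members were lowest at day 0, and 35 were highest in iPSCs. The same was not counted over all genes, of which 63.6% lay above 0 at day 8 over day 0.

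**Figure D1:**
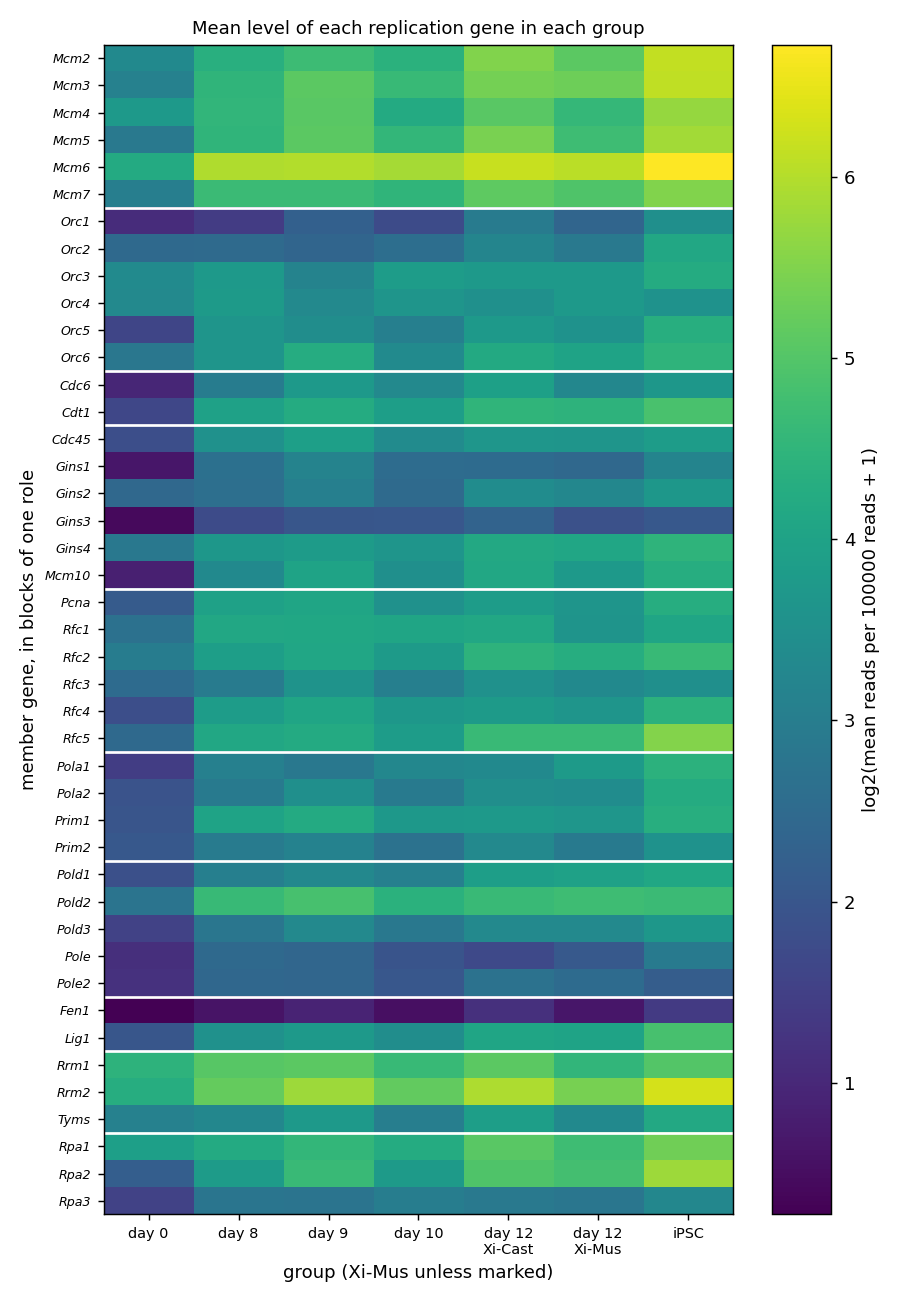
Mean level of each of the 43 replication genes (rows, in blocks of one role) in each group (columns), as log2 of the mean reads per 100000 reads plus 1. The day 0 column is darkest for 40 genes, and the iPSC column is brightest of the Xi-Mus groups for 35, with Mcm6 and Rrm2 bright and Fen1 dark in every group.

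On the log2 scale, much of the difference was present at day 8. There 25 of 42 members passed 2-fold upward against day 0 and 0 downward, while 21.3% of all genes were higher and 11.3% lower by as much. The median log2 ratio was 1.29 for the members and 0.31 for all genes. All 42 lay above 0 (63.6% of all genes did), but Orc2, Gins2, Tyms and Rpa1 lay below 0 after scaling by median ratios. The members that stood highest were Mcm10 (2.49), Cdt1 (2.32), Prim1 (2.06), Orc5 (2.03), Rfc4 (2.03) and Cdc6 (2.02). Orc2 (0.04), Tyms (0.16), Gins2 (0.18), Rpa1 (0.31) and Orc1 (0.31) differed least at day 8, although each was above 1 in iPSCs over day 0. The MEFs were not sorted on SSEA1 and grew in another medium, so reprogramming, medium and the sort cannot be told apart in this comparison, which shares its day 0 group with the previous one.

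**Figure D2:**
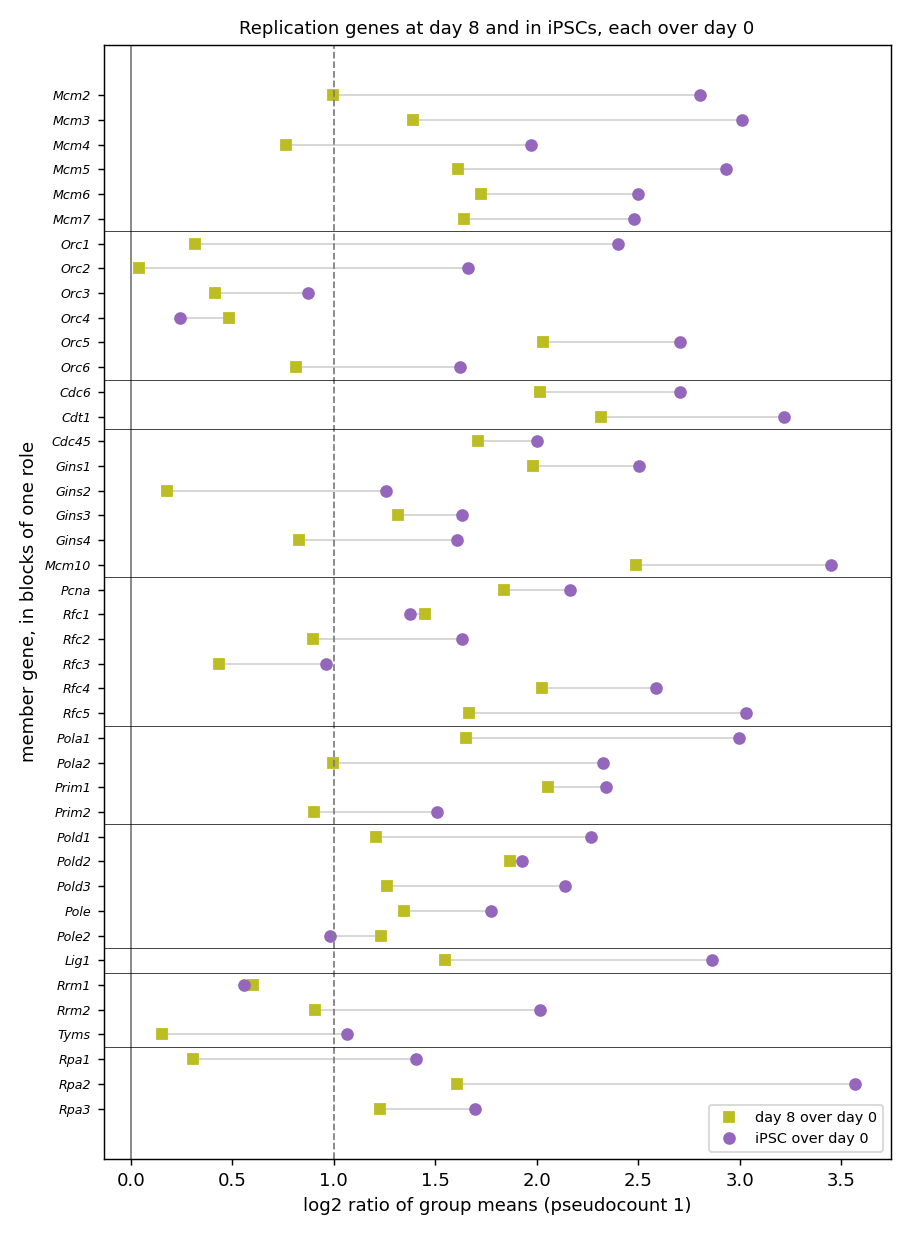
Log2 ratio of group means (x axis, pseudocount 1) over day 0 for day 8 (squares) and iPSCs (circles), for the 42 members with a mean of at least 1 (y axis, in blocks of one role). The dashed line marks 2-fold. Most circles lie to the right of their squares, while Orc4, Rfc1, Rrm1 and Pole2 had the smaller ratio in iPSCs.

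The MCM helicase, a ring of 6 related subunits that unwinds the DNA, was higher in iPSCs in every subunit. Mcm6 had a lowest, median and highest cell of 0, 9.52 and 101 reads per 100000 (day 0), of 0, 48.3 and 170 (day 8), of 0.155, 60.7 and 168 (day 9), of 0, 55.99 and 223 (day 10), of 0, 67.1 and 203 (day 12), and of 16.3, 106 and 208 in iPSCs. The cells of the groups overlapped, but most MEFs lay below the lowest iPSC. All 6 subunits were at least 2-fold higher in iPSCs than at day 0, with log2 ratios between 1.97 (Mcm4) and 3.01 (Mcm3). Mcm3 had means of 68.1 in iPSCs and 7.57 at day 0, and Mcm2 had 69.5 in iPSCs and 9.10 at day 0. Per kilobase of transcript Mcm6 made up the largest part of the summed MCM level in every group, between 28.9% in iPSCs and 38.5% at day 8. Mcm7 shares 12.6% of its exon bases with Ap4m1 and Cops6. Mcm4, the subunit with the smallest ratio, made up 18.2% at day 0 and 11.5% in iPSCs.

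The origin recognition complex, which marks origins and recruits the loaders, had the widest range of iPSC to day 0 ratios of the 10 roles. Orc4 had means of 8.91 (day 0), 12.9 (day 8), 9.02 (day 9), 11.5 (day 10), 12.4 (day 12) and 10.7 in iPSCs. Its level varied little between groups, and its log2 ratio of iPSCs over day 0 was 0.25. Orc5 had 18.97 in iPSCs and 2.06 at day 0, a log2 ratio of 2.70, the largest of the complex. Orc1, a subunit whose protein level changes with the cycle in human cells, had means of 1.14 (day 0), 1.67 (day 8), 3.81 (day 9), 2.33 (day 10), 4.18 (day 12) and 10.3 in iPSCs. After each cell was thinned to 100000 reads, 12 of 84 MEFs (14.3%, exact Clopper-Pearson 95% interval 7.61 to 23.6%) and 81 of 88 iPSCs (92.05%, 84.3 to 96.7%) had reads of Orc1. Unthinned, the shares were 91.1% of iPSCs and 15.1% of MEFs. Orc2 had a mean of 4.55 at day 0, 6.40 at day 12 and 16.5 in iPSCs, but 29.8% of its exon bases overlap Nif3l1 and its level is uncertain. Per kilobase, Orc3 and Orc4 together with Orc6 carried most of the summed level at day 0, with 29.6% (Orc3), 16.1% (Orc4) and 34.997% (Orc6). Orc1 shares 10.8% of its exon bases with Gm12743, and Orc4 shares 7.80% with Acvr2a and Mbd5. In iPSCs Orc4 carried 6.03% and Orc5 20.6%.

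The loading factors Cdc6 and Cdt1, which place the helicase at origins, were low in MEFs. Cdc6 had reads in 6 of 86 MEFs, where its mean was 0.969 and its highest cell 24.5. Its means were 6.96 (day 8), 12.7 (day 9), 8.90 (day 10), 8.52 (day 12) and 11.9 in iPSCs, so its highest Xi-Mus mean was at day 9. In thinned cells the share with Cdc6 reads was 7.14% of MEFs (95% interval 2.67 to 14.9%), 45.7% at day 8 (34.6 to 57.1%) and 84.1% of iPSCs (74.8 to 91.02%). Unthinned shares were 6.98%, 46.3% and 86.7%. Cdt1 had means of 2.15 at day 0, 14.7 at day 8 and 28.4 in iPSCs, with a log2 ratio of iPSCs over day 0 of 3.22.

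Among the factors that activate the helicase, Mcm10, a scaffold protein of the fork, had the largest ratio. Reads of it were found in 6 of 86 MEFs, with a mean of 0.791 there, against 9.06 (day 8), 15.3 (day 9), 10.1 (day 10), 12.7 (day 12) and 18.6 in iPSCs. Its log2 ratio of 3.45 for iPSCs over day 0 became 4.39 with a pseudocount of 0.1. Cdc45, which joins MCM and GINS in the active helicase, had a ratio of 2.00, with a mean of 13.2 in iPSCs against 2.55 at day 0. Of the 4 GINS subunits, Gins1 had the largest ratio, with 8.04 in iPSCs and 0.592 at day 0, and Gins2 the smallest (1.26). Gins3 was low in all groups, with a highest Xi-Mus mean of 3.17 in iPSCs, and had reads in 51.1% of thinned iPSCs (40.2 to 61.9%) and 5.95% of thinned MEFs (1.96 to 13.3%). Its unthinned shares were 54.4% of iPSCs and 8.14% of MEFs. Gins2 shares 67.3% of its exon bases with Gse1, so its level is uncertain.

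Pcna encodes the sliding clamp that tethers the polymerases, and the Rfc genes encode the loader that opens it. Pcna had means of 3.39 (day 0), 14.7 (day 8), 15.8 (day 9), 10.5 (day 10), 11.4 (day 12) and 18.7 in iPSCs, and 51.5% of its transcript aligns to the pseudogene Pcna-ps2. Rfc5 differed most of the loader genes, with 44.8 in iPSCs and 4.60 at day 0 (log2 ratio 3.03), and Rfc3 differed least, with 10.3 and 4.79 (0.96). Rfc1, the large subunit, had 15.7 in iPSCs and 5.42 at day 0, and its highest Xi-Mus mean, 16.6, was at day 8. Smaller overlaps touch Rfc2 (15.1% of exon bases, with Lat2), Rfc4 (12.7%, with Eif4a2) and Rfc5 (10.7%, with Wsb2, to which 17.9% of its transcript aligns). Rfc5 made up 33.1% of the summed loader level per kilobase in iPSCs and 16.7% at day 0, while Rfc3 made up 16.2% in iPSCs and 36.8% at day 0.

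Polymerase alpha-primase starts each new strand with a short RNA-DNA primer. Its primase subunit Prim1 had means of 2.91 (day 0), 15.3 (day 8), 17.6 (day 9), 12.2 (day 10), 11.6 (day 12) and 18.8 in iPSCs. Its day 8 level was thus closer to the iPSC level than to day 0. Pola1, the catalytic polymerase subunit and the only member on the X chromosome, had means of 1.71 (day 0), 7.51 (day 8), 6.27 (day 9), 8.61 (day 10), 12.8 (day 12) and 20.6 in iPSCs. Its log2 ratio of iPSCs over day 0 was 2.997, the largest of the complex, against 1.51 for Prim2, the smallest. Per kilobase Pola1 made up 6.52% of the summed alpha-primase level at day 0, 14.01% at day 12 and 13.5% in iPSCs. Pola1 had reads in 21 of 84 thinned MEFs (16.2 to 35.6%), 63.8% of thinned Xi-Mus cells at day 12 (52.2 to 74.2%) and 97.7% of thinned iPSCs (92.03 to 99.7%). Unthinned, 24 of 86 MEFs, 52 of 80 Xi-Mus cells at day 12 and 90 of 90 iPSCs had them. Reads of the Mus and Cast copies of Pola1 were not separated here.

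Polymerases delta and epsilon copy the lagging and leading strands. Pold2, an accessory subunit of delta, was high by day 8, with means of 5.72 (day 0), 23.5 (day 8), 28.1 (day 9), 19.9 (day 10), 25.6 (day 12) and 24.5 in iPSCs. The catalytic subunit Pold1 had 16.4 in iPSCs and 2.62 at day 0, the largest ratio of the 5 genes (2.27). Pole2 had the smallest (0.98), with 3.55 in iPSCs against 1.31 at day 0, and its highest Xi-Mus mean was 4.82 at day 12. Gm49384 overlaps 8.50% of the exon bases of Pole2. Lig1, the ligase that seals Okazaki fragments, had 2.98 at day 0, 15.1 at day 12 and 27.98 in iPSCs, and a log2 ratio of iPSCs over day 0 of 2.86. Fen1 had means of 1.58 in iPSCs and 0.209 at day 0, and 84.2% of its exon bases overlap Tmem258 and Gm10143. Its level is thus uncertain.

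Ribonucleotide reductase makes the deoxynucleotides of DNA from a large subunit, Rrm1, and a small one, Rrm2. Rrm2 had a lowest, median and highest cell of 0, 7.25 and 159 (day 0), 0, 18.6 and 137 (day 8), 0, 50.8 and 196 (day 9), 0, 11.1 and 199 (day 10), 0, 31.4 and 184 (day 12), and 5.18, 73.8 and 197 in iPSCs. The highest cell at day 0 thus lay above the iPSC median, while the day 0 median lay far below it. Rrm2 differed by a log2 ratio of 2.02 between iPSCs and day 0 and Rrm1 by 0.56, and Rrm1 had its highest Xi-Mus mean at day 9 (33.6). Per kilobase Rrm2 made up 82.1% of the 2 genes in iPSCs and 61.97% at day 0. Tyms, the thymidylate synthase gene, had 17.01 in iPSCs and 7.59 at day 0 (1.07).

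RPA coats single-stranded DNA as a complex of Rpa1, Rpa2 and Rpa3. Rpa2 had a ratio of 3.57, the largest of the 42 members with a pseudocount of 1. Mcm10 was larger with a pseudocount of 0.1 (4.39, against 3.85 for Rpa2) and without the highest cell of each gene (3.63 against 3.62). Rpa2 had means of 3.63 (day 0), 13.1 (day 8), 23.9 (day 9), 12.8 (day 10), 26.9 (day 12) and 53.9 in iPSCs. In single cells its lowest, median and highest values were 0, 0 and 23.1 in MEFs and 12.4, 50.1 and 121 in iPSCs. Every iPSC had reads of Rpa2, against 33 of 86 MEFs, and the ranges overlapped only between 12.4 and 23.1. Rpa1 (1.41) and Rpa3 (1.70) differed less, and per kilobase Rpa2 made up 59.3% of the summed RPA level in iPSCs and 26.1% at day 0.

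**Figure D3:**
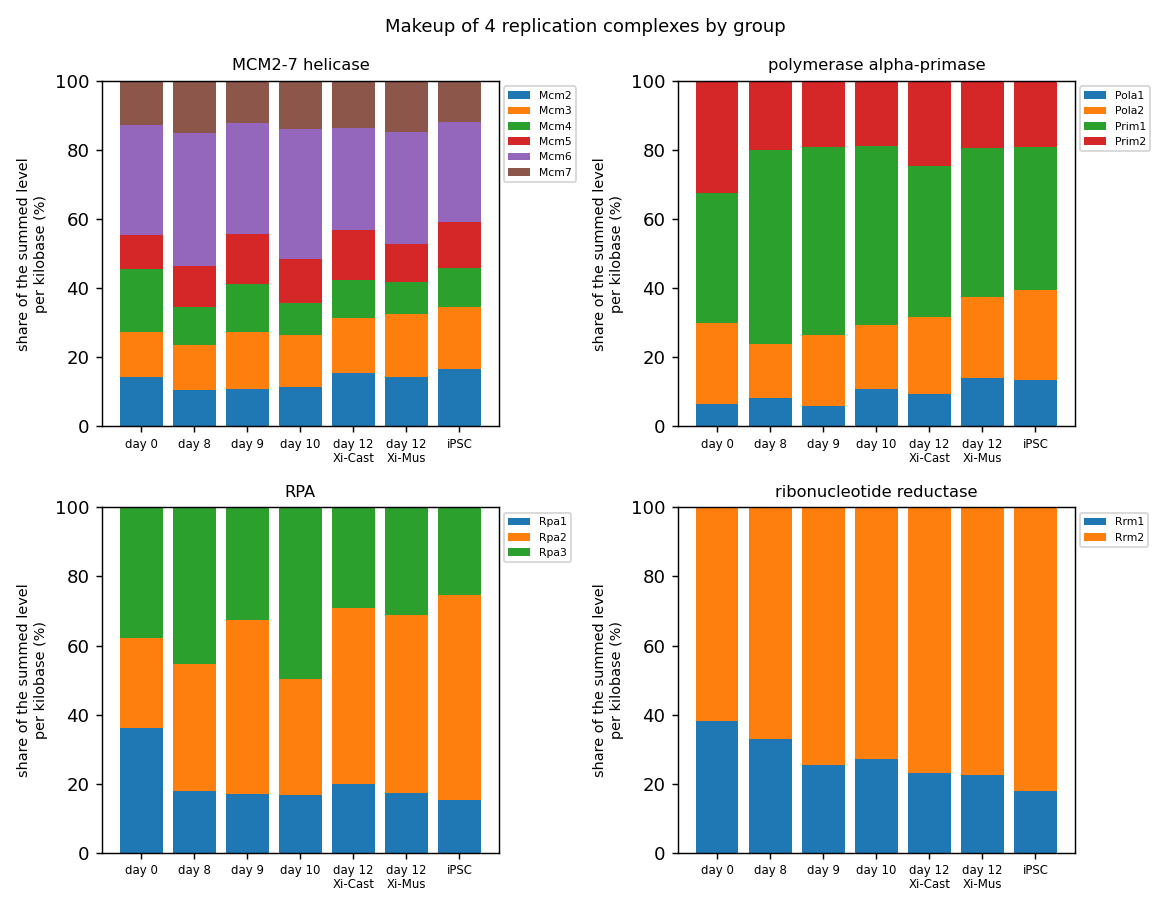
Share of the summed mean level per kilobase of principal transcript (y axis, %) held by each subunit gene of 4 complexes, by group (x axis). Bars are groups. Mcm6 holds the largest MCM share in every group, Rpa2 and Rrm2 hold 59.3% and 82.1% of theirs in iPSCs, and Pola1 holds 5.73 to 14.01% of alpha-primase.

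Between day 8 and day 10 no member passed 2-fold, but most lay higher at day 9 than at day 8 and lower at day 10 than at day 9. At day 9 over day 8, 0 of 42 members were at least 2-fold apart in either direction, where 0.966% of all genes were higher and 0.703% lower. The median log2 ratio was 0.23, 32 of 42 members lay above 0 (54.5% of all genes did), and the extremes were Orc1 (0.85) and Orc3 (-0.61). At day 10 over day 9, 0 of 42 were again 2-fold apart (1.40% of all genes were higher and 0.388% lower), with a median of -0.45 against 0.01 for all genes. Only Orc2, Orc3, Orc4, Gins3, Pola1 and Rpa3 lay above 0, and 36 lay below it, where 50.8% of all genes lay above 0. Orc6 (-0.92), Mcm4 (-0.88) and Rpa2 (-0.85) were lowest. The Xi-Mus group at day 10 thus stood below day 9 for most members, with a mean Rrm2 level of 34.998 at day 10 against 54.003 at day 9. When log values were averaged over cells instead, 6 members were at least 2-fold lower at day 10.

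At day 12 over day 10, Rpa2 (1.02) was the only member at least 2-fold higher and 0 were lower, where 2.91% of all genes were higher and 2.79% lower. The median was 0.32 and 33 of 42 members lay above 0 (45.2% of all genes did). In iPSCs over day 12, 5 members were at least 2-fold higher and 0 lower, where 3.12% of all genes were higher and 14.2% lower. The 5 were Orc2 (1.24), Mcm4 (1.15), Orc1 (1.13), Mcm5 (1.10) and Mcm2 (1.04), and the median was 0.62 with 39 of 42 above 0 (44.7% of all genes). Orc4 (-0.19), Pold2 (-0.06) and Pole2 (-0.35) lay below 0. The average of log values, which weighs cells without reads more, gave 30 members at least 2-fold higher in iPSCs than at day 12 and a median of 1.23. The genes of G2 and mitosis, by contrast, had a median of 0.02 in iPSCs over day 12, and 12 of 20 lay above 0.

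The Xi-Cast and Xi-Mus intermediates of day 12 were in the same pool and shared the SSEA1 sort, but came from MEFs of opposite GFP gates. Of 42 members, 0 were 2-fold apart in either direction (0.556% of all genes were higher and 1.70% lower in Xi-Cast). The median log2 ratio of Xi-Cast over Xi-Mus was 0.15, and 36 of 42 lay above 0, against 52.5% of all genes. With reads summed over the group before scaling, 27 of 42 lay above 0. Mcm5 was highest (0.70), with means of 42.02 in Xi-Cast and 25.4 in Xi-Mus cells, and Pola1 was lowest (-0.45), with 9.07 in Xi-Cast and 12.8 in Xi-Mus cells. Pola1 made up 9.25% of the summed alpha-primase level per kilobase in Xi-Cast and 14.01% in Xi-Mus cells. Its cells overlapped widely, with 0, 4.03 and 48.7 as the lowest, median and highest in Xi-Cast and 0, 7.45 and 82.4 in Xi-Mus.

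The levels of the members were next summed within each cell, without weights, so abundant genes count most. In iPSCs the mean sum was 1128, of which the 6 MCM helicase genes made up 394. The lowest, median and highest sums were 30.5, 151 and 1130 reads per 100000 (day 0), 106, 535 and 1441 (day 8), 97.1, 731 and 1423 (day 9), 40.7, 431 and 1438 (day 10), 42.1, 765 and 1597 (day 12), and 535, 1129 and 1561 in iPSCs. The ranges overlapped, and the upper parts differed as well as the lower, with 90th percentiles of 571 at day 0, 1004 at day 8 and 1393 in iPSCs. The lowest iPSC sum, 535, was reached by 10 of 86 cells at day 0 (11.6%, exact 95% interval 5.72 to 20.3%), 41 of 82 (day 8, 38.7 to 61.3%), 60 of 83 (day 9, 61.4 to 81.6%), 34 of 80 (day 10, 31.5 to 54.1%) and 47 of 80 (day 12, 47.2 to 69.6%). In day 12 Xi-Cast cells it was reached by 50 of 66 (63.6 to 85.5%). This limit is set by 1 iPSC. At the 10th percentile of the iPSCs, 822, a limit added after seeing the data, 4 of 86 MEFs (1.28 to 11.5%) remained, with 20 cells left at day 8, 31 left at day 9, 19 left at day 10 and 38 left in each day 12 group. These intervals cover counting error only.

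**Figure D4:**
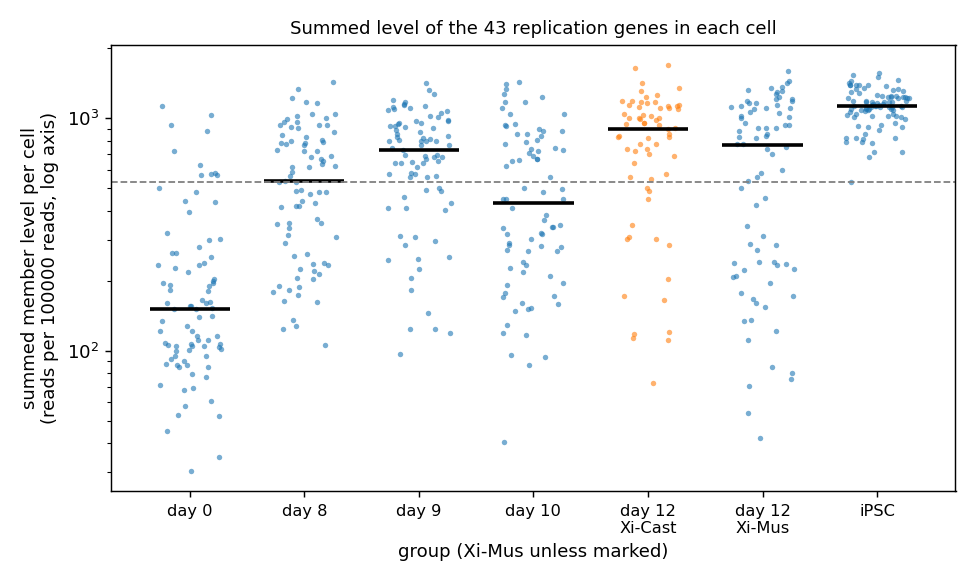
Summed level of the 43 replication genes in each cell (y axis, reads per 100000 reads, log axis) by group (x axis). Points are cells (orange for Xi-Cast), black bars are medians and the dashed line is the lowest iPSC, at 535. The iPSCs form a narrow band, the MEFs lie mostly below the line, and the intermediates spread over both.

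The spread among cells was smallest in iPSCs. The coefficient of variation of the sum was 98.6% in MEFs and 18.1% in iPSCs. Day 8 had 56.96%, day 9 had 45.4%, day 10 had 68.5% and day 12 had 65.9%. The standard deviations of MEFs (228, mean 231) and iPSCs (204, mean 1128) were close, so that contrast lies mostly in the means. The largest standard deviation was 456, in Xi-Mus cells at day 12. In cells thinned to 100000 reads, the median number of the 43 members with reads was 18 (day 0), 31 (day 8), 38 (day 9), 29 (day 10), 36 (day 12) and 41 in iPSCs. Unthinned medians were 19, 32, 39, 31, 37 and 41 in the same order. Over all genes, the unthinned median number with reads per cell was 6824 (day 0), 6478.5 (day 8), 7390 (day 9), 6993.5 (day 10), 6854 (day 12) and 7657 in iPSCs. The lowest thinned iPSC had reads of 35 members and the lowest thinned MEF of 6, while the highest MEF had 40.

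Members varied together from cell to cell before the iPSC stage and only weakly in iPSCs. As a description, the Spearman correlation of each member with the sum of the others, all from the same library, had a median over the 43 members of 0.48 (day 0, 86 cells), 0.54 (day 8, 82 cells), 0.55 (day 9, 83 cells), 0.63 (day 10, 80 cells), 0.65 (day 12, 80 cells), and 0.19 in iPSCs (90 cells). It was above 0.5 for 32 members at day 12 and for 4 in iPSCs, where Gins3, Gins4, Rfc5, Pola1, Pola2, Pole and Pole2 lay below 0. No other genes were set against this sum for reference. At day 12 the most tightly coupled members were Mcm3 (0.90), Rrm2 (0.87), Mcm7 (0.85), Mcm4 (0.84) and Rpa2 (0.83). Orc4 (0.04), Prim2 (0.29) and Gins3 (0.31) were the loosest there. In iPSCs the most coupled were Rrm2 (0.58), Rpa2 (0.53), Cdc6 (0.52) and Mcm4 (0.52). Orc4 was loose at day 8 (-0.18), day 9 (-0.07) and day 10 (-0.00), and Orc3 was loose at day 9 (-0.21). Depth was weakly related to the sum, with a correlation of 0.15 to 0.28 in the 5 Xi-Mus groups before the iPSC stage and of -0.07 in iPSCs.

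The members were set against 20 genes of G2 and mitosis, which act after replication. The summed members and the summed G2 and mitosis genes had a correlation over cells of 0.74 (day 0), 0.52 (day 8), 0.35 (day 9), 0.69 (day 10), 0.61 (day 12) and -0.26 in iPSCs. On the day 12 group a gap, looked for after the values were seen, split the G2 and mitosis sum, so the pooled value there rests on both sides of it. None of the 80 cells lay between 56.7 and 149 reads per 100000, with 26 below and 54 above. In iPSCs 29 of 43 members had a negative correlation with the G2 and mitosis sum, with Pcna (-0.34) and Cdc6 (-0.33) the most negative and Pold1 (0.22) the most positive. At day 0 and day 12 0 members were negative. The share of all genes with a negative correlation was not computed, so these counts have no reference. Every iPSC had a G2 and mitosis sum of at least 345, and the median MEF had 16.9.

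**Figure D5:**
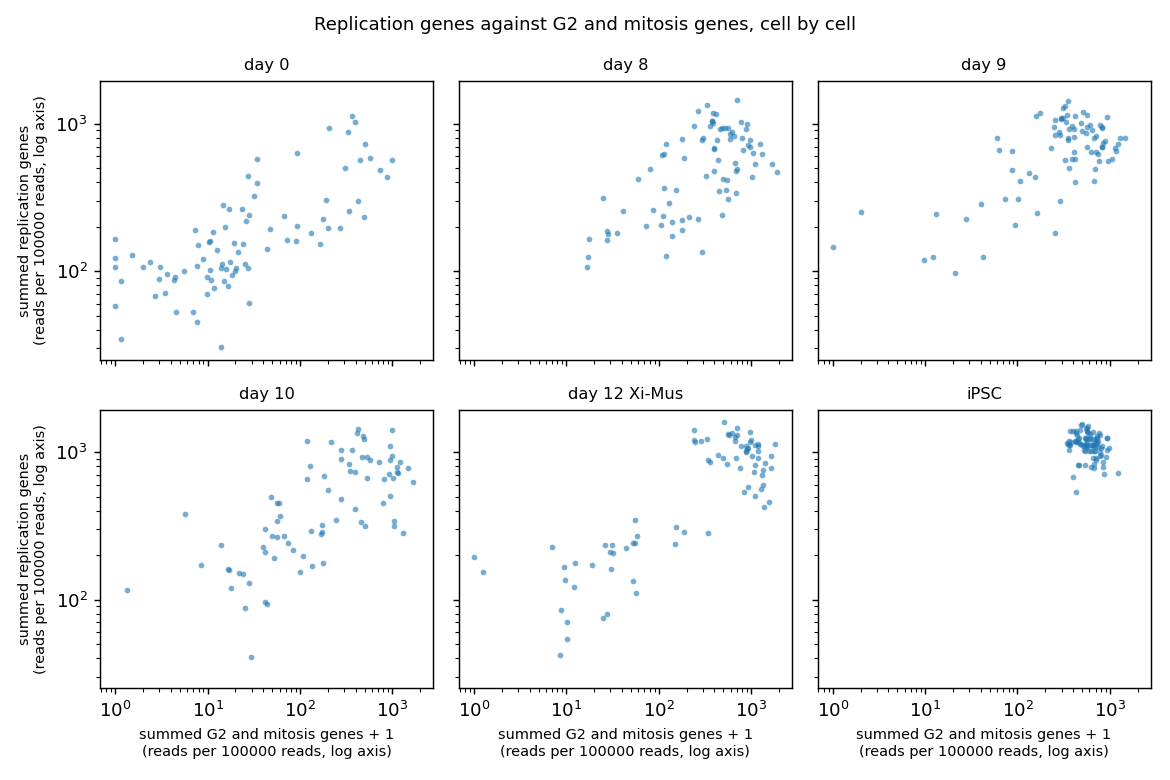
Summed level of the 43 replication genes (y axis) against that of 20 G2 and mitosis genes plus 1 (x axis), both in reads per 100000 reads on log axes, for the 6 Xi-Mus groups. Points are cells. MEFs and intermediates spread from low in both to high in both, and iPSCs sit in 1 cluster at the top right.

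The sum was also set against other markers. At day 12 the summed members had a correlation of 0.69 with the summed pluripotency markers, of -0.72 with the summed epithelial markers, and of -0.48 with Cdkn1a, the p21 inhibitor of cyclin-dependent kinases. In Xi-Cast cells these were 0.67, -0.55 and -0.53, and in iPSCs 0.01, -0.02 and 0.07. At day 8 they were 0.35, -0.39 and -0.43, at day 10 0.62, -0.51 and -0.26, and at day 9 0.22, -0.52 and -0.12, so pluripotency markers and Cdkn1a were only weakly related to the sum at day 9. The part of the makeup of the groups in the levels above was not tested. Leaving out the 19 cells with reads of blood and macrophage genes, or of fibroblast genes after day 0, an alternative chosen after seeing the data, gave 1 member at least 2-fold lower at day 10 than at day 9 in place of 0, and the other counts of the 7 comparisons stayed within 1.5 times.

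Replication genes beyond the 43 were mostly higher in iPSCs too. Of 44 further genes for initiation control, fork protection and checkpoint, accessory polymerase subunits, chromatin assembly and nucleotide metabolism, 41 had a mean of at least 1. In iPSCs over day 0, 32 of 41 were at least 2-fold higher and 0 lower, with a median of 1.87 and 40 above 0. Among all genes 21.6% were higher, 17.8% lower and 55.7% above 0. The highest were Ticrr (3.19), which helps load Cdc45, the fork protection gene Tipin (2.88), the nucleotide pyrophosphatase gene Dctpp1 (2.85) and Gmnn (2.84), whose product geminin restrains Cdt1. The lowest were Rnaseh2c (-0.02), Tk1 (0.14), Samhd1 (0.16) and Top1 (0.26). Gmnn had means of 20.9 in iPSCs and 2.06 at day 0, and Tk1, the thymidine kinase of the salvage route, 4.41 and 3.92. All 9 fork and checkpoint genes passed 2-fold, from Clspn (1.14) to Tipin.

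Regulators of S-phase entry did not share 1 direction. Of 15 E2F and G1/S cyclin genes, 4 passed 2-fold upward and 1 downward in iPSCs over day 0, with a median of 0.49, where 21.6% of all genes passed upward and 17.8% downward. The upward count is thus near that of all genes. Ccne1, the cyclin E1 gene, had means of 65.1 in iPSCs and 7.68 at day 0 (2.93), whereas Ccnd2, the cyclin D2 gene, had 0.454 in iPSCs and 97.4 at day 0 (-6.08). E2f1, an activating E2F gene, had 1.97 in iPSCs and 2.30 at day 0 (-0.15), and E2f4 had 14.5 and 5.67 (1.22). Of 4 inhibitor genes of cyclin-dependent kinases, 2 were at least 2-fold lower in iPSCs, Cdkn2b (-4.02) and Cdkn1a (-2.57), with Cdkn1a at 18.96 in iPSCs and 117 at day 0. Of the 20 G2 and mitosis genes, 19 stood 2-fold or more above day 0 in iPSCs (median 2.33), among them Aurka (3.38).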

How the data were processed

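Deposited values are the natural log of 1 plus the reads of a gene scaled to a fixed total per cell. The authors mapped Smart-seq2 reads to build mm10 with STAR 2.5.3a and assigned them to genes by featureCounts, and they used Seurat for cell filters, scaling and logs. Their notes also name SAMtools. The methods give a scale of 100000, but each cell summed to 10000 once the log was undone, so values were put back on a linear scale and expressed per 100000 reads. All 3980842 values above 0 were then whole reads within 0.01 reads or 1e-06 of the value, which gave the depth of each cell. The table held 567 of 672 labelled cells. Copies made by PCR carry no molecular identifier, so reads are not independent molecules. The libraries do not mark strand, so overlapping genes on opposite strands cannot be told apart.

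Each group was treated as 1 sample, since no label separates cultures or animals within it, and no test was run. Groups were compared as log2 ratios of means with a pseudocount of 1, keeping genes whose mean over the 7 groups reached 1. The part of a gene in its complex was taken per kilobase of the principal GENCODE transcript. These parts are shares of reads and not of protein. Sums over genes and the map of mean levels were not corrected for length. Shares carry exact Clopper-Pearson 95% intervals, and thinned shares leave out 9 cells with fewer than 100000 reads (0 to 2 per group). Read sharing was measured by exon overlap and by alignments of at least 50 bases and 98% identity. The ratio step was checked on simulated data. Python 3.11.15, numpy 2.4.6, pandas 2.3.3, scipy 1.17.1 and matplotlib 3.10.9 were used.

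The members and all gene lists were chosen with earlier results of these data known. Every member could be named, with the highest and lowest ratio of each role, and likewise the 4 highest and 4 lowest further replication genes and up to 3 at each end of the other lists. Alternatives changed the pseudocount, the filter on low values, the scaling, the averaging, the highest cell and the depth. Doublets were not called, and the deposited sheets of index sequences were not used.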

Additional observations from a re-analysis of the deposited data

How the results depend on the processing

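No paired analysis was possible because each group was treated as 1 sample and its cells carry no shared replicate numbers. Of 216 recomputed summary values (counts past 2-fold, medians, shares, detected members, cells in the iPSC range and correlations), 202 stayed within 1.5 times, or within 0.1 for a correlation, and 14 moved. All 7 medians kept their sign under every alternative, and no called member changed sign. The count at least 2-fold higher was 34 to 40 for iPSCs over day 0 and 21 to 28 for day 8 over day 0. With a pseudocount of 0.1, 1 member was 2-fold higher at day 9 than at day 8. With the mean of log values, 4 members were 2-fold higher at day 9 than at day 8, 6 lower at day 10 than at day 9, 0 higher at day 12 than at day 10, 30 higher in iPSCs than at day 12 (median 1.23) and 2 higher in Xi-Cast than in Xi-Mus cells. With summed reads over summed depth, 2 were higher at day 12 than at day 10 and 3 in iPSCs than at day 12. Leaving out 19 cells with markers of another cell type, an alternative chosen after seeing the data, gave 1 member lower at day 10 than at day 9. Raising the limit for the iPSC range of the summed members to the 10th percentile of the iPSCs, also chosen after seeing the data, left 4 MEFs in place of 10, 20 cells in place of 41 (day 8), 31 in place of 60 (day 9) and 19 in place of 34 (day 10). Among single members 67 of 2618 values moved by more than 1.5 times. With 1 sample per group, cell number and depth limit only the counting error, and differences between cultures, pools, media and sorts remain in every comparison they separate. Members with a mean under 1 in a group, such as Fen1 in the Xi-Mus groups before the iPSC stage and Cdc6, Mcm10, Gins1 and Gins3 at day 0, rest on few cells or few reads. The level of Fen1 is also uncertain because of its exon overlap.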
